A study of Saccharomyces cerevisiae with 32 samples.

Results

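The loop between strands beta1 and beta2 of the third PDZ domain of PSD95 (PDZ3) was examined through every listed sequence that changed it once. It holds R16, G17, S18 and T19 of the listed domain, which are R318, G319, S320 and T321 of PSD95. A sequence was included if it had no stop codon, exactly 1 substitution at residues 16 to 19, and no or 1 substitution in the bound peptide, the C-terminal tail of the protein CRIPT. This rule took no measured value and found 10479 sequences, 74 with a loop substitution alone and 10405 pairs that also changed the peptide. They stood among 251627 sequences of the PDZ3-CRIPT table and 470640 of the whole series.

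PDZ domains are small interaction modules that bind the C-terminal tails of partner proteins in a groove between strand beta2 and helix alpha2. The terminal carboxylate of the ligand is held by backbone amides of the carboxylate-binding loop, which carries the GLGF motif and directly follows the residues described here. In crystal structures of PDZ3 with CRIPT, the arginine called R16 here reaches the carboxylate through a water molecule. Of the peptide, the C-terminal valine (V8, ligand position 0) fills a hydrophobic pocket, and the threonine at ligand position -2 (T6) contacts a histidine of helix alpha2.

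Binding was scored in yeast of strain BY4741 by protein complementation, in which binding of PDZ3 to CRIPT reassembles a dihydrofolate reductase that lets cells grow in methotrexate. The PDZ3-CRIPT library was selected in 2 blocks, each with 3 biological replicates taken before selection, after about 5 generations without drug, and 3 taken after about 5 generations in medium with 200 µg/mL methotrexate. Each block also had 1 wild-type control sample, so that 14 of the 32 samples of the series belonged to this library. The deposited table merged the replicates into a fitness score and an error for each protein sequence. No value per replicate and no read depth was used here, so each ± below is the authors' error or is propagated from it, and the depth behind a score is unknown. The scale of the score is not given in the sources used here. Differences were tested with two-sided normal tests on those errors, Benjamini-Hochberg adjusted over all comparisons of the same kind in the listing that holds PDZ3 residues 1 to 50, which has 105281 sequences without a stop, and were called at an adjusted p under 0.05. Such a test takes each error as known, although it came from 3 replicates, so only the calls are given and not the p-values.

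The wild-type peptide and the stretch of wild-type PDZ3 from residue 10 to residue 26 follow as the deposited table gives them, with the loop in capitals. The substitutions shown after them are those on which the results turn, written in the same stretch with the new residue in capitals, and the ligand substitutions are written in the peptide in the same way.
CRIPT: knykqtsv
wild type: rrivihRGSTglgfniv
R16D: rrivihDgstglgfniv
R16K: rrivihKgstglgfniv
R16P: rrivihPgstglgfniv
R16A: rrivihAgstglgfniv
G17P: rrivihrPstglgfniv
G17H: rrivihrHstglgfniv
S18W: rrivihrgWtglgfniv
T19Q: rrivihrgsQglgfniv
T19R: rrivihrgsRglgfniv
T19I: rrivihrgsIglgfniv
CRIPT V8R: knykqtsR
CRIPT T6D: knykqDsv
CRIPT Q5E: knykEtsv
CRIPT S7T: knykqtTv
CRIPT S7N: knykqtNv

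The wild-type pair scored -0.000512 ± 0.00383. The 4095 sequences with a stop codon in this listing had a median score of -0.796, and the 557 of them with the stop at residues 16 to 19 ranged from -1.25 to -0.524 with a median of -0.892. Of the 76 possible loop substitutions, S18I and T19L were not listed alone, and 10405 of 11552 possible pairs (90.1%) were listed. No filter on low values was applied, so all listed members entered the tests. The median error was 0.0137 for the 74 loop substitutions alone and 0.0423 for the pairs. None of the 74 shared its score and error with another sequence, whereas 1211 pairs (11.6%) had both values identical in all digits to those of another sequence. That share was 24.8% for pairs with a substitution at T6 or V8 and 7.69% for the others.

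The 4 residues of the loop differed from each other in how much the score tolerated their substitution. Alone, 18 of 19 substitutions of R16 scored lower than wild type and none higher. At G17, 12 of 19 were lower and none higher. At S18, 2 of 18 were lower and none higher, and at T19 none of 18 was lower and 7 were higher. Over the loop, 32 of 74 were lower and 7 higher, beside 45.5% lower and 9.43% higher among the 870 PDZ3 substitutions of the listing. The counts of lower and higher substitutions at each of the 4 residues were the same at an unadjusted p under 0.05.

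The mean effect, taken as score minus the wild-type score, was -0.192 ± 0.00331 at R16, -0.0480 ± 0.00388 at G17, -0.00466 ± 0.00382 at S18 and 0.0432 ± 0.00491 at T19, errors that leave out the wild type's own. Ranked from the lowest mean among the 50 residues of the listing, R16 came 13th, G17 29th, S18 38th and T19 49th, and the neighbouring G20 of the GLGF motif, a glycine of the carboxylate-binding loop, was the highest. The mean at S18 was not called against wild type, and the other 3 were. Each of the 6 differences between these 4 means was called, with p-values adjusted over the 6. R16 minus G17 was -0.144 ± 0.00510, G17 minus S18 -0.0433 ± 0.00545 and S18 minus T19 -0.0479 ± 0.00622. When each substitution's effect was instead taken from its pairs, as the median over ligands close to wild type, the mean was 0.0198 at T19 and -0.00430 at S18. These 2 means cover 19 substitutions each and the listed means 18. The added ones, T19L at -0.0562 and S18I at -0.0598, were not listed alone. Within a residue, the SD across substitutions was 0.0747 at R16, 0.0368 at G17, 0.0335 at S18 and 0.0481 at T19.

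R16 had the lowest scores of the loop. The lowest were R16D at -0.276 ± 0.0139, R16I at -0.261 ± 0.0154 and R16E at -0.259 ± 0.0125, which are acidic or branched aliphatic replacements of the arginine. Alanine, which removes most of the side chain, gave -0.252 ± 0.0148. By residue class, the mean effect at R16 was -0.267 ± 0.00932 for acidic residues, -0.227 ± 0.0118 for aromatic, -0.207 ± 0.00598 for aliphatic and -0.192 ± 0.00514 for polar ones. Scores nearest to wild type came from R16M at -0.0759 ± 0.0152, R16K at -0.0474 ± 0.0129 and R16P at -0.0278 ± 0.0137. R16K, which keeps the positive charge, was still called lower than wild type. It lost this call with an error of 0.0228, the spread between the listings, added once in squares to the error of the difference. R16P was the 1 substitution of R16 that was not called. No score at R16 came down to the range of the stop sequences at the same residues, of which the highest was -0.524.

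Some chemically close residues had scores apart at R16, and these contrasts were chosen after their values were seen and carry no test. R16M exceeded R16L, its unbranched and branched counterparts among aliphatic residues, by 0.163 ± 0.0184. R16S exceeded R16A by 0.123 ± 0.0208. The acidic residues lay closer together, with R16D minus R16E at -0.0173 ± 0.0186.

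G17 is the glycine after the arginine. Its lowest score was that of G17P at -0.127 ± 0.0133, the replacement of a flexible residue by a rigid one. G17Q at -0.0973 ± 0.0243 and G17D at -0.0911 ± 0.0115 followed. At the other end, G17V scored 0.00842 ± 0.0209, G17H 0.00541 ± 0.0262 and G17I -0.00961 ± 0.0182, none of them called. The class means ran from -0.127 for proline over -0.0605 for acidic and -0.0583 for aromatic residues to -0.0304 for aliphatic and -0.0273 for basic ones.

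S18 took nearly every replacement without a called change. S18W, a large aromatic residue in place of a small polar one, scored -0.122 ± 0.0169 and S18G -0.0401 ± 0.0115, and these were the 2 substitutions called lower. S18G lost its call with the added error of 0.0228. The other aromatic residues were not called: S18W lay below S18F by a difference of -0.111 ± 0.0215 and below S18Y by a difference of -0.128 ± 0.0214, contrasts that were also chosen after their values were seen. The remaining 16 substitutions reached from S18V at -0.0122 to S18T at 0.0438 ± 0.0276, the change that only adds a methyl group, without a call.

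T19 stands directly before the GLGF motif, and its called substitutions were all higher than wild type. T19R scored 0.187 ± 0.0170, T19I 0.119 ± 0.0260 and T19W 0.0956 ± 0.0171. T19M at 0.0534 ± 0.0247, T19P at 0.0335 ± 0.0157, T19Q at 0.0316 ± 0.0110 and T19E at 0.0302 ± 0.0133 made up the 7, and these 4 lost their calls with the added error. These 7 residues are basic, aliphatic, aromatic, cyclic, polar and acidic, so that no residue class held them all. The lowest scores at T19 were those of T19D at -0.0132 ± 0.0135, T19C at 0.00934 ± 0.0122 and T19Y at 0.0111 ± 0.0131, none of them called.

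Charge was compared at each residue as the mean of the basic minus the mean of the acidic substitutions, with p-values adjusted over the 4 residues. At R16, lysine exceeded the acidic pair by 0.220 ± 0.0159, which was called. At T19 the difference of 0.110 ± 0.0190 was called, but it was 0.0412 and no longer called once T19R was left out, a choice made after its value was seen. The differences of 0.0332 ± 0.0165 at G17 and 0.0155 ± 0.0171 at S18 were not called.

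Next to its neighbours in sequence, the loop had a mean effect of -0.0522 ± 0.00200 over 74 substitutions, strand beta1 (residues 10 to 15) -0.0500 ± 0.00219 over 113 and the GLGF motif (residues 20 to 23) -0.282 ± 0.00292 over 76. The loop and strand beta1 were -0.00222 ± 0.00297 apart, which is within the error. With weights of the inverse squared error the same difference was -0.0287 ± 0.00223 and was called, so this comparison depends on the weighting. The loop lay above the GLGF motif by 0.230 ± 0.00354, which was called. In strand beta1, 39 substitutions were lower and 9 higher, and in the motif 53 were lower and 15 higher. The lowest effect of a substitution was -0.275 in the loop, against -0.629 in strand beta1 and -0.832 in the motif.

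The pairs gave a measure of each loop substitution that did not use its own listed score. For 50 CRIPT substitutions that lay within 0.1 of wild type when alone (19 at N2, 12 at K1, 6 each at Y3, Q5 and S7, and 1 at K4), the score of the pair minus that of the CRIPT substitution alone was averaged. This mean over near-neutral ligands was available for all 76 loop substitutions, S18I and T19L included. By it, 18 of 19 were lower and none higher at R16, 18 of 19 lower and none higher at G17, 3 lower and 9 higher at S18, and 2 lower and 13 higher at T19. Over the loop that made 41 lower and 22 higher, beside 60% lower and 21.2% higher among the 836 PDZ3 substitutions measured this way.

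The listed scores and the means over near-neutral ligands ran together across the loop and at R16, and did not at T19. Over 74 substitutions Pearson's r was 0.930 and Spearman's rho 0.855. Within R16 r was 0.944 over 19 substitutions, within S18 0.708 over 18, within G17 0.456 over 19, and within T19 0.0471 over 18. The corresponding rho was 0.784, 0.366, 0.430 and -0.0382. These are descriptions across substitutions that share libraries and errors.

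At R16 both measures put the acidic residues and alanine low. The mean over near-neutral ligands was lowest for R16Y at -0.261 ± 0.0148, with R16W at -0.260 and R16D at -0.257 ± 0.00593 beside it. R16K was at -0.00840 ± 0.00497, not called, and lower in 31 of 50 ligands. R16P was at -0.0594 ± 0.00452, called, and lower in 50 of 50. R16P minus R16K was 0.0197 ± 0.0188 in the listed scores, about its own error, and -0.0510 ± 0.00672 over near-neutral ligands, a contrast chosen after its values were seen. R16M minus R16L was 0.139 by the second measure and R16S minus R16A 0.120, close to their listed differences.

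At G17, the proline was again the lowest at -0.120 ± 0.00507, and G17H at -0.117 ± 0.0170 was next to it although its listed score was near wild type. G17H was lower in 24 of 25 near-neutral ligands. The acidic residues differed from each other, with G17E minus G17D at 0.0601 ± 0.0171 in the listed scores and 0.0655 over near-neutral ligands. G17F at -0.00563 was the 1 substitution of G17 that was not called. At S18, S18W kept its place with -0.118 ± 0.00778 and was lower in 48 of 49 ligands. S18I, for which no score alone was listed, was at -0.0559 ± 0.0119 over 33 ligands, and S18T was at -0.0347, not called.

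At T19 the order changed. T19R was the highest by both measures, but its mean over near-neutral ligands was 0.0574 ± 0.00448, higher in 50 of 50 ligands, against the 0.187 listed. T19Q was close behind it at 0.0505 ± 0.00386 and higher in 48 of 50. T19R minus T19Q was 0.155 ± 0.0203 in the listed scores and 0.00693 ± 0.00592 over near-neutral ligands, chosen after the values were seen. T19G at 0.0421, T19P at 0.0415, T19H at 0.0396 and T19E at 0.0341 followed, T19W was at 0.0240 ± 0.00540, and T19I at -0.0112 ± 0.00802 was not called. The 2 substitutions called lower were T19L at -0.0518 and T19S at -0.0455.

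The difference between a listed score and the mean over near-neutral ligands passed the threshold for 4 loop substitutions, beside 3.28% of the 824 PDZ3 substitutions with both. It was 0.131 for T19I, 0.130 for T19R, 0.123 for G17H and 0.0721 for T19W. In each of the 4 the listed score was the higher. The median difference was -0.00720 in the loop and -0.00269 over all substitutions.

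Substitutions with few listed pairs stood apart, a split made after the values were seen and not tested. For 10 loop substitutions under 100 pairs were listed, from T19K with 37 and S18P with 43 to S18R with 97. Their median over near-neutral ligands was -0.0494, while the median of the 8 of them that were listed alone was 0.00418. Of the 10, 6 were called lower over near-neutral ligands and 0 higher, beside 60% lower and 21.2% higher of the 836 PDZ3 substitutions. The other 66 had a median of -0.0153 over near-neutral ligands and -0.0227 listed, with 35 lower and 22 higher. The median error of a pair was 0.0911 in the first set and 0.0406 in the second. G17H, S18I, S18T, T19L and T19S were among the 10, so that 5 of the values above rest on few, imprecise pairs; the part of pair number in them was not tested.

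With charge compared over near-neutral ligands, lysine at R16 exceeded the acidic residues by 0.246. At T19 the basic minus acidic difference was 0.0201 ± 0.0123, not called, and at S18 it was -0.0183 ± 0.00816, just short of a call and of the opposite sign to the listed scores. That sign came from S18R at -0.0150 ± 0.0137, since S18K at 0.0277 lay above S18D at 0.0246 and S18E at 0.0247. S18R, and G17K and T19K at their residues, are among the 10 substitutions with under 100 pairs. With medians over the same ligands in place of means, the difference was 0.0272 at T19 and -0.0258 at S18. Both were then called, with the error of a mean, so these calls depend on the summary used.

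Each pair was next compared with its own CRIPT substitution alone, which asks what the loop change did to a given ligand. Of 10405 pairs, 2290 (22.0%) were lower and 637 (6.12%) higher, beside 26.1% and 7.31% of all pairs of the listing. R16 accounted for 1891 of the lower pairs, 67.7% of its 2793. G17 had 301 lower and 85 higher of 2522, S18 77 lower and 219 higher of 2540, and T19 21 lower and 271 higher of 2550.

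The effect of R16 stayed between -0.182 and -0.201 against 6 of the 8 ligand positions. Its mean was -0.191 ± 0.00255 with K1 changed, -0.188 ± 0.00244 with N2, -0.194 ± 0.00260 with Y3, -0.201 ± 0.00344 with K4, -0.182 ± 0.00282 with Q5 and -0.198 ± 0.00268 with S7. Between 289 and 315 pairs were lower at each of these positions, of 355 to 361 listed. These shares were 80.5% to 87.3%, beside 28.3% to 34.7% of the listing's pairs at the same positions. With T6 changed the mean was -0.0398 ± 0.00749, with 29 lower and 20 higher of 317, and with V8 changed -0.0343 ± 0.00729, with 67 lower and 40 higher of 332. At T6 the listing's background was 3% lower and 17.3% higher, and at V8 7.43% lower and 15.6% higher. The median score of R16 pairs was -0.856 with T6 and -0.818 with V8, both within the range of the stop sequences.

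The mean effect of R16 also varied with the score of the ligand substitution alone. For R16 the mean effect was -0.188 ± 0.00149 over 939 pairs whose CRIPT substitution lay within 0.1 of wild type, and -0.198 ± 0.00160 over 1092 pairs with a CRIPT substitution 0.1 to 0.4 below it. It was -0.146 ± 0.00617 over 225 pairs at 0.4 to 0.7 below, and 0.00291 ± 0.00645 over 499 pairs at more than 0.7 below. The number of R16 pairs called lower in these bins was 813 (86.6%), 936 (85.7%), 94 (41.8%) and 12 (2.40%), in that order, beside 34.5%, 31.1%, 12% and 0.435% of all pairs of the listing in the same bins. With Q5E and S7T, the 2 ligands more than 0.1 above wild type, the mean was -0.327 ± 0.00801 and 36 of 38 pairs were lower, beside 66.6% of the listing. At the other residues the mean effect was also highest with the weakest ligands, as it was over the whole listing, where it went from -0.128 to 0.0947. It went from -0.0496 to 0.0935 at G17, from 0.00122 to 0.130 at S18 and from 0.0225 to 0.149 at T19 between the ligands nearest wild type and those more than 0.7 below. With the 2 ligands above wild type it was -0.191 at G17, -0.140 at S18 and -0.137 at T19. With T6 changed, 75 of 295 S18 pairs (25.4%) and 71 of 300 T19 pairs were higher than their CRIPT substitution alone. A few ligands carried these counts, in a split made after the values were seen: T6G, T6L, T6N, T6P and T6Q, each more than 0.9 below wild type alone, gave 163 of the 203 higher loop pairs with T6. They were higher in 163 of 322 loop pairs, beside 47.7% of the listing's pairs with them, and the other T6 substitutions in 40 of 871, beside 6.02%. V8E, V8P and V8Y, also more than 0.9 below, were higher in 141 of 180 loop pairs, beside 73.0% of the listing's. The other V8 substitutions were higher in 54 of 1023, beside 5.98%. Alone, these low T6 and V8 ligands scored -1.26 to -0.917, below the stop median of -0.796. The medians of their loop pairs, -0.843 to -0.773, lay within the range of the stop sequences. A call of higher there does not by itself show regained binding.

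The CRIPT substitutions alone had smaller errors than the pairs: V8R alone, for example, scored -0.858 with an error of 0.00829, and the pair of R16K with V8R scored -0.787 with an error of 0.152. With all pairs that share both values with another sequence left out, an alternative added after the data were seen, 580 of 9194 loop pairs (6.31%) were higher than their CRIPT substitution alone and 2245 (24.4%) lower, beside 7.98% and 27.5% of the listing.

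Pairs were also set against the score expected from both substitutions alone, read from a monotone curve of pair score on the sum of the single effects over all 104260 pairs of the listing. Of the loop pairs, 75 (0.721%) lay above the curve and 62 (0.596%) below it, beside 1.06% above and 0.39% below for the listing. R16 had 13 above and 17 below, G17 18 and 12, S18 30 and 3, and T19 14 and 30. A few substitutions made up most of these pairs. Of the 62 below, 30 carried CRIPT S7T and 26 PDZ3 T19R, and of the 75 above, 26 carried CRIPT S7N. The pairs with none of the 3 numbered 48 above and 6 below. In the whole listing, S7T was carried by 288 of the 407 pairs below the curve and S7N by 209 of the 1106 above. Of the loop pairs with S7T 43.5% were below, beside 39.0% in the listing. Of those with S7N 37.1% were above, beside 30.3%.

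S7T and S7N change the serine at ligand position -1, and each was scored alone in both listings of the table. S7T alone was 0.218 ± 0.00895 in the listing of the loop and 0.0478 ± 0.00518 in that of residues 51 to 100, and S7N -0.410 ± 0.00582 and -0.493 ± 0.00636. For comparison, Q5E was 0.116 ± 0.00402 and 0.127 ± 0.00430. All 69 listed loop pairs with S7T were lower than S7T alone, beside 99.1% of the listing's pairs with it, with medians of -0.279 at R16, -0.121 at G17, -0.0576 at S18 and -0.0618 at T19. With S7N, 39 of 70 loop pairs were higher than S7N alone, beside 42.6% of the listing's, and the medians were -0.464 at R16, -0.310 at G17, -0.274 at S18 and -0.223 at T19. The order of R16 below G17 below the other two residues was seen with both ligands. S7T alone lay above all its loop pairs, whereas S7N alone lay within the range of its own, -0.644 to -0.138. With S7T and S7N left out, an alternative added after the data were seen, 34 loop pairs (0.331%) were above the curve and 28 (0.273%) below, beside 0.684% and 0.0982% of the listing. With T19R left out 36 were below, 0.351% beside 0.366% of the listing.

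Pairs named here are the 2 farthest above and the 2 farthest below the curve at each residue. R16A with V8R, an arginine in place of the C-terminal valine, scored -0.339 ± 0.0482 where -0.828 was expected. Of the 16 listed R16 pairs with V8R the lowest was R16N at -1.05, the median was -0.888 and the second highest was R16M at -0.671. V8R alone was at -0.858, above which R16A, R16M and R16P at -0.674 were called, and of these 3 R16A was the 1 above the curve. R16K with T6D, an acidic residue in place of the threonine at ligand position -2, scored -0.374 ± 0.0597 against an expected -0.764. The 17 R16 pairs with T6D had a median of -0.835, T6D alone was at -0.779, and the next highest after R16K was R16F at -0.737. Both pairs were still called with the median deviation of each substitution removed.

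At R16 the pairs farthest below the curve were R16G and R16W with S7T. R16G with S7T scored -0.295 ± 0.0259 against an expected 0.0221 and R16W with S7T -0.312 ± 0.0392 against -0.0192. With the medians removed, R16G was still called and R16W was not.

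At G17 the farthest above were G17M with V8W at -0.360 ± 0.0831 against an expected -0.781 and G17S with T6G at -0.421 ± 0.0747 against -0.828. The farthest below were G17H with Y3Q at -0.592 ± 0.127 and G17H with Y3H at -0.359 ± 0.0842. Both of these shared their values with another sequence, and neither was called with the medians removed.

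At S18 the highest were S18F with T6N at -0.351 ± 0.0618 against an expected -0.796 and S18D with T6K at -0.384 ± 0.0669 against -0.757. S18W and S18G with S7T, at -0.195 ± 0.0461 and -0.124 ± 0.0268, were the farthest below, and neither was called with the medians removed. At T19 the farthest above were T19W with V8P at -0.444 ± 0.0901 against -0.828, which shared its values with another sequence, and T19H with V8K at -0.375 ± 0.0674 against -0.689. T19K with K4V at -0.574 ± 0.0882 and T19R with V8A at -0.797 ± 0.0814 were the farthest below. Both lost the call with the medians removed, T19R with V8A also with the product of the single effects as expectation, and T19K with K4V with an added error of 0.0228. Over the whole list of 75 loop pairs above the curve, 14 carried a ligand change at T6 and 17 one at V8. These were 14 of 1193 and 17 of 1203 loop pairs, beside 164 of 11351 and 129 of 11475 pairs of the listing.

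The mean deviation from the curve, over all pairs of a loop residue and a ligand position, gave a view that single pairs do not. Its error covers the pair scores only. The errors of the single scores behind the expectation, which pairs share, are left out, so the ± is too small. R16 with T6 had the lowest mean deviation of 43 PDZ3 residues with at least 50 such pairs, -0.0499 ± 0.00720, and R16 with V8 was second lowest of 43 at -0.0319. No single R16 pair with T6 or V8 was called below the curve, and 1 and 5 were called above it. The median scores of these pairs, -0.856 and -0.818, lay within the range of the stop sequences. Of these pairs, 27.8% and 28.9% shared both values with another sequence. S18 had a positive mean deviation with all 8 ligand positions, from 0.00943 to 0.0220, ranking 33rd to 41st of 43 from the lowest.

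T6S, which exchanges the threonine at ligand position -2 for the other hydroxyl residue, scored -0.170 alone. Its 19 pairs with R16 went from R16W at -0.567 to R16K at -0.146 with a median of -0.396, and R16P at -0.236 came second. The order at the top, lysine over proline, was that of the near-neutral ligands.

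Opposite charges were compared between the loop and the lysines of the peptide. Pairs of an acidic residue at K1 or K4 with a charged loop residue were taken. The mean deviation from the curve was -0.0214 for 20 pairs with a basic loop residue and 0.0149 for 32 with an acidic one. The difference of -0.0362 ± 0.0152 passed a normal test at p under 0.05. Its error covers the pair scores only and leaves out the single scores behind the expectation, which pairs shared. That error is therefore too small and the test too lenient. Without T19R, with the curve fitted anew, the difference was -0.0104 ± 0.0176 and did not pass, so that the call rests on this substitution.

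Among all members, 8230 (78.5%) scored lower than wild type and 88 (0.840%) higher, beside 78.9% and 1.16% of the listing. T19 gave 46 of the 88, S18 33, G17 8 and R16 1. Besides the 7 substitutions of T19 alone, 81 were pairs, and 37 of these carried Q5E, 13 Y3W, 11 N2K and 8 N2V. No pair with a substitution at K1, K4, T6 or V8 was among them. The ligands of the listing's sequences above wild type were not compared, so this make-up is not shown to be particular to the loop. Alone, Q5E scored 0.116 ± 0.00402, Y3W 0.0597 ± 0.00426 and N2K 0.0580 ± 0.0136. The highest member was T19C with Q5E at 0.190 ± 0.0316, next to T19R alone at 0.187 and T19R with Q5E at 0.177 ± 0.0314.

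Q5E, the exchange of glutamine for glutamate at ligand position -3, gave pair medians in the order R16, G17, S18 and T19 from low to high, as did the wild-type peptide. Its pairs with R16 ranged from R16Y at -0.357 to R16M at 0.0733 with a median of -0.0753, and those with G17 had a median of 0.0776. With S18 they ranged from S18W at 0.0274 to S18A at 0.163 with a median of 0.124, and with T19 from T19V at 0.0700 to T19C at 0.190 with a median of 0.136. No loop pair was higher than Q5E alone by the test, and 19 of 71 were lower, beside 33.3% of the listing's pairs with it.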

How the data were processed

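Fitness was measured in yeast carrying the PDZ3-CRIPT library, before and after methotrexate selection. The submitters' processing notes name cutadapt and FastQC. The deposited score per protein sequence and the deposited score error were made by the authors, who merged replicates and synonymous codons, as the table's columns show; the score's scale, any count filter and how the error was made are not given in the sources used here.

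Single effects were taken against the listed wild-type sequence, which stands in the listing of residues 51 to 100. Tests were two-sided normal tests with the authors' errors, treated as standard errors, with Benjamini-Hochberg adjustment over the listing. p-values therefore cover only that error. The curve was an unweighted isotonic regression (scikit-learn 1.9.0, with numpy 2.4.6, pandas 2.3.3 and scipy 1.17.1). On scores simulated with the listing's errors and 200 changed sequences or pairs, the test against wild type recovered 46.5% of shifts of 0.2 with 2 false calls among 105281. Of shifts of 0.1 it recovered 1.5%. For shifts of 0.4 among 104260 pairs, the curve test recovered 82% with 4 false calls and the test against the CRIPT substitution 82% with 6. All other scores were simulated without a change and the reference scores without error, whereas 78.9% of the listing was called lower than wild type. The listing's median error was 0.0509, against 0.0137 for loop substitutions alone. These rates therefore do not describe the calls on loop substitutions. The members, lists and tests were chosen with earlier results of these data known. Named were, per residue, the 3 highest and 3 lowest substitutions alone, all those called higher, and the 2 pairs farthest above and below the curve among those called. Other named substitutions and pairs were chosen after their values were seen. Alternatives changed the threshold, the reference, the error, the precision filter, the weighting and the expectation.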

Additional observations from a re-analysis of the deposited data

How the results depend on the processing

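Of the alternatives to the values that answer a comparison, 60 kept direction and side of the threshold, or a count within 1.5 times. The exceptions follow, and their cause was not tested. The 7 loop substitutions above wild type were 3 with an error of 0.0228 added (the spread of CRIPT substitutions between the listings) and 4 at an adjusted p under 0.01. The T19 mean of 0.0432 was 0.0198 over near-neutral ligands, still called. The S18 mean was 0.00223 as a median and -0.00430, then called, over near-neutral ligands. These values over near-neutral ligands rest on the median of each substitution. Their tests used the error of a mean, which is smaller than that of a median. Calls on these medians, that at S18 among them, may therefore be too strong. Values over near-neutral ligands include S18I and T19L, which the listed means lack. The median for S18I was -0.0598, and whether the S18 call holds without it was not tested. By the mean over near-neutral ligands, 9 substitutions of S18 were called higher and 3 lower. The loop minus strand beta1 was -0.0287 with inverse squared error weights and -0.00369 over near-neutral ligands, called in both. Basic minus acidic was -0.0258 at S18 with medians over near-neutral ligands, called. At T19 it was 0.0272 with those medians, called, and 0.0412 in the listed scores without T19R, not called. The S18 medians were 0.0258 for S18K and -0.0306 for S18R, against 0.0242 for S18D and 0.0228 for S18E.

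Counts of pairs are followed here by their share of the loop pairs tested and then by the listing's share. The 75 pairs above the curve (0.721%, 1.06%) were 443 (4.26%, 5.72%) with a plain sum and 319 (3.07%, 3.21%) with a product. They were 24 (0.231%, 0.387%) with substitution medians removed, 28 (0.432%, 0.876%) with the lower 50% of errors and 39 (0.375%, 0.599%) with the added error. Without S7 they were 28 (0.309%, 0.567%) and at 0.01 43 (0.413%, 0.612%). With a weighted curve they were 43 (0.413%, 0.633%), and without S7T and S7N 34 (0.331%, 0.684%). The 62 below (0.596%, 0.390%) were 185 (1.78%, 1.11%) with a plain sum and 187 (1.80%, 1.25%) with a product. They were 5 (0.0481%, 0.0432%) with medians removed, 34 (0.327%, 0.248%) with the added error and 20 (0.221%, 0.0840%) without S7. At 0.01 they were 36 (0.346%, 0.255%), without S7T and S7N 28 (0.273%, 0.0982%) and without T19R 36 (0.351%, 0.366%). The weighted curve and the removal of S7T, S7N or T19R were added after the data were seen. Pairs above their CRIPT substitution were 637 (6.12%, 7.31%) and fell to 386 (3.71%, 4.85%) at 0.01. With the lower 50% of errors, which left 6487 of 10405 loop pairs to test, they were 251 (3.87%, 7.25%). The difference by charge of -0.0362 was -0.000302 with a product, -0.0136 with medians removed, -0.0209 with the lower 50% of errors and -0.0104 without T19R, called in none of these.

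Of the named substitutions and pairs, 299 values kept their call, 26 lost it, 6 gained it and 6 reversed. As medians over near-neutral ligands the reversed ones were G17H at -0.110, G17V at -0.0402, S18T at -0.0472, S18V at 0.00539, T19D at 0.0111 and T19I at -0.00905. No paired analysis was possible because the authors merged the replicates, and leaving out a replicate was not run for the same reason. The median error of a loop pair was 0.0423, against 0.0137 for a loop substitution alone.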
